A study of Homo sapiens with 12 samples.

Results

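To determine which genes responded to doxycycline differently when the induced microRNA was miR-10b rather than miR-10a, the log2 fold change with doxycycline was taken for each vector and the change with miR-10a was subtracted from the change with miR-10b. The 12 of 12 samples of the series enter this comparison, with 3 samples in each of 4 groups. All samples came from H9, an established human embryonic stem cell line, transduced at a MOI of 50 with a lentiviral vector in which miR10a-GFP or miR10b-GFP is switched on by doxycycline. The cells were neuralized with noggin and SB431542, an inhibitor of TGF-beta receptors, patterned to ventral midbrain with the GSK3 inhibitor CT99021, which activates WNT signalling, and Shh at 200 ng/ml, and were harvested on day 14. The doxycycline groups received the drug on days 11 to 14, and the control groups were cells carrying the same vector that never received it. A response to doxycycline itself cannot be told apart from a response to the microRNA within a vector, but a response of equal size with both vectors does not enter the difference. No group here carried a vector with GFP alone.

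Each vector was introduced into its own population of cells, and the populations differed before any drug was added. Without doxycycline, 848 of 11451 tested genes (7.41%) were higher in miR-10b samples than in miR-10a samples and 770 (6.72%) were lower at an adjusted p under 0.05. Total counts ranged from 10545487 to 14165426 per sample, and within each vector the lowest control total lay above the highest total of the doxycycline samples. A count of 3, taken as the smallest detectable, corresponds to 0.212 to 0.284 CPM (counts scaled to the same total in every sample), and this limit covers counting error only. The miR-10b doxycycline replicate 2 stood farther from the other replicates of its group than any other sample did, with a chi-square per degree of freedom of 3.18 and 4.11 against 1.22 to 1.93 for all other pairs. Nothing in the labels says that the replicates came from separate cultures, so the p-values measure only the spread between these samples. Samples were bulk RNA, and fewer cells of a type cannot be told apart from less RNA per cell.

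MicroRNAs guide the silencing complex to messenger RNAs that pair with the seed, a short stretch near the 5′ end, and paired messengers are usually degraded or translated less. MIR10A lies in the HOXB cluster and MIR10B in the HOXD cluster, and both are known as microRNAs of the hindbrain and spinal cord that are absent from midbrain. The 5p strands, miR-10a-5p and miR-10b-5p, have the same seed, whereas the 3p strands do not. The mature sequences below show the seeds searched for in 3′UTRs, with bases 2 to 8 in capitals (RefSeq, GRCh38.p14).
hsa-miR-10a-5p: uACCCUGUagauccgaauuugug
hsa-miR-10a-3p: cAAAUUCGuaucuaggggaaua
hsa-miR-10b-3p: aCAGAUUCgauucuaggggaau

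The precursor transcripts, each 110 bases long in the counted annotation, followed the labels of every sample. MIR10A was at 1.37, 0.988 and 0.641 CPM in the miR-10a control samples and at 731, 729 and 711 CPM after doxycycline. It was at or below 0.172 CPM, under the detection limit, in all 6 samples of the miR-10b vector, so no fold change is given there. MIR10B was at 4.45, 2.89 and 3.31 CPM in the miR-10b control samples and at 2662, 2541 and 2653 CPM after doxycycline, and lay between 0.190 and 1.04 CPM in the 6 samples of the miR-10a vector. The induced level of MIR10B was thus above that of MIR10A in all samples, and the log2 difference of MIR10B between the vectors was 10.14 ± 0.55 (SE, adjusted p = 1.68e-15). By the study's text the libraries were poly-A selected, so these reads report transcripts that hold the precursor region and not the mature microRNA. Whether the low counts outside the induced groups came from the vector or from the cell's own gene was not tested.

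Of the 11451 genes tested, 224 (1.96%) responded differently with the 2 vectors in edgeR's quasi-likelihood test. The response was lower with miR-10b for 158 (1.38% of the tested genes) and higher for 66 (0.576%), the precursors included. DESeq2 gave a more uneven split, with 165 lower and 22 higher, and gave no adjusted p for 5994 genes. Taken over all tested genes, as was added after the data were seen, DESeq2 called 127 lower and 25 higher. Of the genes named here, SLC39A8, MCF2L2, GAS5-AS1, DNAH17, NEK8, USP32P1, COX6B2, DNAH1 and DNAH7 among the higher and MIR663AHG, TNFRSF12A, TFPI, LOC100507351, DLL4, TGFB1, EGR1, JUN, BNIP3, ARSJ and SLC38A2 among the lower were not called in that fit, with adjusted p from 0.0511 to 0.226. Leaving out 1 library at a time, 12 times in all, gave 140 to 339 calls, with 111 to 222 lower and 28 to 117 higher. The total was lowest without miR-10a control replicate 2 and highest without miR-10b doxycycline replicate 3, and these fits also gave the 28 and the 117 higher calls. Higher calls were also 40 and 36 without miR-10a doxycycline replicates 1 and 2, 41 without miR-10a control replicate 1 and 33 without miR-10b control replicate 3. Without the miR-10b doxycycline replicate 2, which stood apart, 169 were lower and 63 higher. Taken singly, the miR-10a vector gave 139 responding genes (1.21%) and the miR-10b vector 1756 (15.3%).

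The called genes were mostly genes that responded with miR-10b and hardly with miR-10a. Leaving the precursors aside, 216 of the 222 called genes (97.3%) also passed the test for the miR-10b vector on its own, and 29 (13.1%) passed it for the miR-10a vector. Over all tested genes these shares were 15.3% and 1.21%. The larger response was that of miR-10b for 214 genes (96.4%), beside 63.1% of all tested genes. All 65 genes that were higher had a miR-10b effect above 0, and 155 of the 157 lower genes had one below 0. The difference is made from these same effects, so such counts are largely set by the selection and only describe the called genes. The sizes were small: the median was 0.328 on the log2 scale, 174 genes differed by less than 0.5, and 20 by more than 1. Of these 20, 14 were higher, and of those only SLFN13, FCGBP, DNAH2 and TRANK1 reached a mean of 5 CPM in a group. The effects of the vectors had the same sign in 121 cases (54.5%, beside 60.5% of all tested genes) and opposite signs in 101. The median miR-10a effect was -0.038, so its sign is often that of a value near 0.

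**Figure D1:**
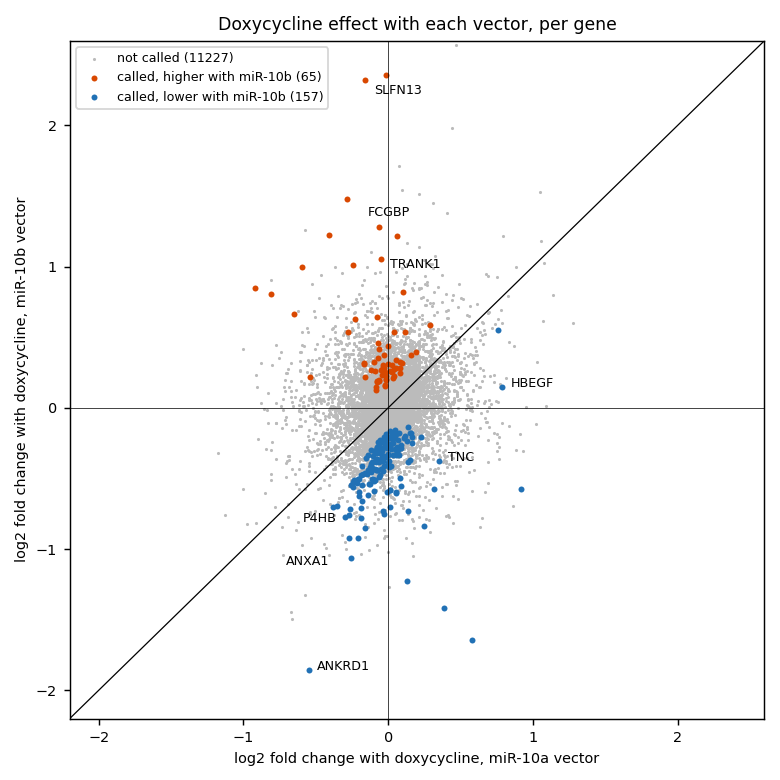
Log2 fold change with doxycycline for the miR-10a vector (x axis) and the miR-10b vector (y axis), 1 point per tested gene, precursors left out, with the diagonal marking equal responses and colours marking genes called higher (65) or lower (157) with miR-10b. Most called genes lie along the vertical axis, where the miR-10a effect is near 0, and HBEGF is among the exceptions to the right, and 4 genes lie outside the axes.

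Of the 6 genes with the smallest p-values apart from the precursors, P4HB, ANKRD1, GALNT1, MESDC2 and SLC7A1 were lower and SLFN13 was higher. P4HB, which encodes protein disulfide isomerase and serves as a subunit of collagen prolyl hydroxylase, was at 682, 666 and 661 CPM in miR-10a control samples and 597, 585 and 583 CPM with doxycycline. In the miR-10b samples it was at 744, 733 and 761 CPM without and 473, 454 and 444 CPM with doxycycline. It fell with both vectors and no group overlapped another, but the fall was deeper with miR-10b, by a log2 difference of -0.52 ± 0.04 (SE, adjusted p = 3.65e-10). GALNT1, which starts mucin-type O-glycosylation, went from 396.0 ± 10.4 to 327.6 ± 4.2 CPM with miR-10a and from 423.4 ± 9.1 to 249.9 ± 13.9 CPM with miR-10b (SD, n = 3), a difference of -0.49 ± 0.05. MESDC2, an endoplasmic reticulum chaperone for LRP receptors, and SLC7A1, a cationic amino acid transporter, had the same form, with differences of -0.48 ± 0.05 and -0.41 ± 0.05. These 4 genes fell with both vectors, with miR-10a effects from -0.27 to -0.13 and miR-10b effects from -0.76 to -0.54, each past the threshold. B4GALT2, a galactosyltransferase, lay instead at 4.02, 4.73 and 5.29 CPM before and 5.07, 6.46 and 5.03 CPM after doxycycline with miR-10a, and at 5.32, 7.48 and 6.01 CPM before and 3.37, 3.86 and 3.33 CPM after with miR-10b. Its fall was seen with miR-10b, and the difference was -1.08 ± 0.23 (adjusted p = 0.00608).

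Of the 12 tested target genes of YAP and TEAD, the transcriptional outlet of the Hippo pathway, 3 were lower, beside 1.38% of all tested genes, and none higher. The median difference was -0.109 beside 0.007 over all tested genes. The gene lists here and below were chosen with earlier results of these data known, so their shares only describe the listed genes. ANKRD1, an ankyrin repeat protein induced by mechanical load, was at 38.0, 42.4 and 33.5 CPM in miR-10a control samples and 27.8, 26.7 and 23.4 CPM with doxycycline. With miR-10b it was at 65.8, 64.4 and 72.6 CPM without and 16.7, 19.9 and 19.4 CPM with doxycycline. The miR-10b samples were thus the highest of all before the drug and the lowest after it, and the difference was -1.31 ± 0.12 (adjusted p = 1.39e-09). CTGF, a secreted matricellular protein, stayed between 552 and 593 CPM in all 6 miR-10a samples, whereas with miR-10b it was between 988 and 1100 CPM without and between 704 and 779 CPM with doxycycline. CYR61, its close relative, lay between 143 and 154 CPM in all 6 miR-10a samples and fell from 225.6 ± 17.1 to 178.9 ± 16.0 CPM with miR-10b (SD, n = 3). The differences of these genes were -0.43 ± 0.05 and -0.39 ± 0.07. The other 9 tested members ranged from -0.18 (AJUBA) to 0.21 (MYOF) and none of them passed the test.

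In the list of extracellular matrix and adhesion genes, 20 of 20 tested members had a negative difference, 3 of them past the threshold. The median of that list was -0.063. Over all tested genes 51.8% had a difference above 0 and 1.38% were called lower. TNC, the matrix glycoprotein tenascin C, was at 22.5, 22.0 and 17.2 CPM before and 30.2, 26.3 and 22.2 CPM after doxycycline with miR-10a, and at 95.2, 75.0 and 84.0 CPM before and 61.3, 63.2 and 71.3 CPM after with miR-10b. The miR-10b values did not overlap the miR-10a values at either state, and the difference was -0.72 ± 0.13 (adjusted p = 0.000804). GPC4, a glypican that binds growth factors through heparan sulphate, had a difference of -0.37 ± 0.05, and SDC4, a syndecan of focal adhesions, one of -0.41 ± 0.08. Collagen genes, kept as a separate list, were divided, with 16 of 29 tested below 0 and 13 above 0. Of these 29, 3 were called lower and none higher. COL1A1, the main chain of type I collagen, lay between 43.6 and 51.3 CPM in the 6 miR-10a samples, at 107, 89.8 and 109 CPM in miR-10b control samples and at 60.9, 65.9 and 75.4 CPM with doxycycline. Its difference was -0.65 ± 0.10, that of COL3A1 -0.38 ± 0.07 and that of COL5A2 -0.36 ± 0.06, while the median over the collagen list was -0.023. COL1A1 and COL3A1 are also the 2 called members of the mesenchyme and fibroblast list, so these counts are not separate. That list of 10 genes summed to 165 to 166 CPM in miR-10a control samples, 162 to 183 with doxycycline, 371 to 394 in miR-10b control samples and 310 to 332 with doxycycline, and the part of such cells in the matrix calls was not tested. ANXA1, a membrane-binding annexin, and PTRF, the caveolar coat protein cavin-1, which was chosen after its values were seen, had differences of -0.81 ± 0.14 and -0.66 ± 0.09.

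**Figure D2:**
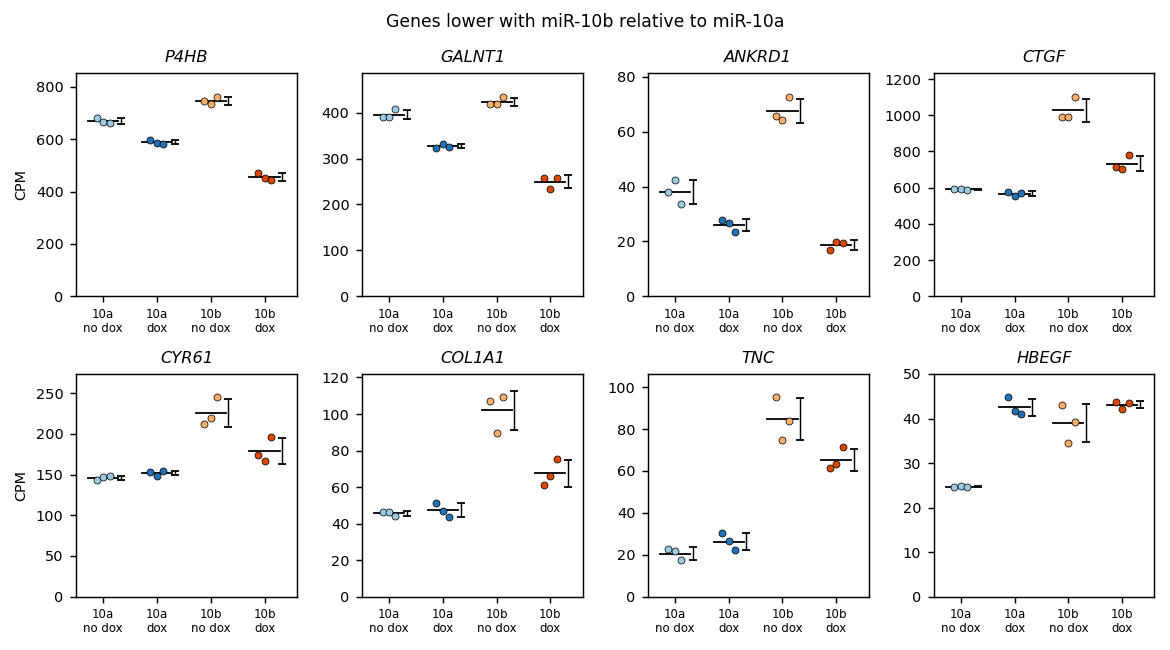
CPM per sample (y axis, starting at 0) for 8 genes with a lower response to miR-10b, in the 4 groups on the x axis, with points for samples, horizontal lines for means and bars for SD (n = 3). In all panels but that of HBEGF the miR-10b control samples are the highest, and in HBEGF the low group is the miR-10a control.

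The shape seen for ANKRD1, with the highest values in miR-10b control samples, was common among the lower genes. Among the 157 lower genes, 65 (41.4%) were already higher in miR-10b than in miR-10a samples without doxycycline, beside 7.4% of all tested genes, and 24 of the 65 higher genes (36.9%) were already lower, beside 6.72%. These shares use the same control samples as the difference itself, so they are given only as a description. The group mean farthest on the log2 scale from the median of the 4 group means was that of the miR-10b doxycycline samples for 130 of the 222 called genes. For 82 it was that of the miR-10b control samples, and for the remaining 10 that of a miR-10a group, with 5 for each. Over all 11449 tested genes apart from the precursors, the miR-10b doxycycline group was the farthest for 4415 and the miR-10b control group for 2809. The miR-10a control group was the farthest for 2422 and the miR-10a doxycycline group for 1803.

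Lower calls, which made up 1.38% of all tested genes, also fell on actin and signalling genes. The 17 tested members of the BMP and TGF-beta list gave 3 lower and 0 higher calls, among them the ligands BMP6 (-0.59 ± 0.10) and TGFB1 (-0.35 ± 0.09). Among 13 tested actin and SRF target genes, CNN1, a calponin of contractile cells, and TPM4, a tropomyosin, were lower, by -0.87 ± 0.17 and -0.48 ± 0.11. The immediate early genes EGR1 and JUN were lower by -0.42 ± 0.09 and -0.24 ± 0.06, 2 of 13 tested, and in both the miR-10a effect was above 0 and not past the threshold. The calls of TGFB1 and JUN were lost in 10 and 7 of the 12 fits that left out a library, with adjusted p up to 0.109 without miR-10b doxycycline replicate 1 for TGFB1 and up to 0.128 without miR-10a control replicate 3 for JUN, and that of TPM4 without miR-10a doxycycline replicate 1 (0.0799) or miR-10b doxycycline replicate 1.

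HBEGF, an EGF receptor ligand chosen after its values were seen, came to a lower response by another route. It was at 24.7, 24.8 and 24.5 CPM in the miR-10a control samples and at 44.7, 41.6 and 41.1 CPM with doxycycline. With miR-10b it was at 43.0, 34.4 and 39.3 CPM without and 43.7, 42.2 and 43.5 CPM with doxycycline. The miR-10a control samples were the only low group. The effect was 0.78 ± 0.07 with miR-10a, the effect with miR-10b was 0.15 ± 0.07 and did not pass the threshold, and the difference was -0.63 ± 0.10 (adjusted p = 7.8e-05).

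Further lower genes included cell surface and coagulation proteins. F2RL1, a protease-activated receptor, lay between 7.49 and 9.32 CPM in the 6 miR-10a samples, between 13.4 and 16.2 CPM in miR-10b control samples and between 7.64 and 8.33 CPM after doxycycline, a difference of -0.71 ± 0.16. TFPI, the inhibitor of tissue factor, and TNFRSF12A, a TNF receptor family member, had differences of -0.69 ± 0.17 and -0.71 ± 0.19, of which the first was lost in 5 and the second in 8 of the 12 fits without a library (highest adjusted p 0.0811 and 0.142, both without miR-10a doxycycline replicate 1). HIST1H2BH, a replication-dependent histone gene with near-identical copies among which reads may be split, lay between 18.3 and 22.3 CPM in the 9 samples other than miR-10b with doxycycline and at 11.2, 13.2 and 11.97 CPM in those. It was the 1 lower call among 23 tested histone genes, beside 1.38% of all tested genes, and nothing is read from this share. The noncoding RNAs MIR663AHG and LOC100507351 differed by -0.89 ± 0.24 and -0.69 ± 0.19, and their calls were lost in 8 and 9 of the 12 fits without a library (adjusted p up to 0.16 without miR-10b control replicate 3 and 0.122 without miR-10a control replicate 1).

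Metabolic and cell cycle genes gave lower calls of smaller size, beside 1.38% of all tested genes called lower. Of 18 tested hypoxia and glycolysis genes, 3 were lower and 0 higher: HK2, the hexokinase of growing cells, differed by -0.32 ± 0.06, PGK1, a glycolytic kinase, by -0.18 ± 0.04 and BNIP3, a mitophagy receptor, by -0.32 ± 0.08. All 3 fell with both vectors, and HK2 went from 152.3 ± 3.8 to 128.5 ± 4.0 CPM with miR-10a and from 147.1 ± 9.2 to 99.7 ± 3.7 CPM with miR-10b (SD, n = 3). CDC6, which loads the replicative helicase, and RRM1, a subunit of ribonucleotide reductase, were 2 lower calls among 25 cell cycle genes, by -0.32 ± 0.06 and -0.22 ± 0.05. SLC7A1 was the 1 call of 17 tested amino acid response genes, and nothing is read from that share. SLC38A2, another amino acid transporter, chosen after its values were seen, differed by -0.32 ± 0.07 in edgeR, but DESeq2 with its own filter gave an adjusted p of 0.0723. The calls of PGK1 and BNIP3 were lost in 5 and 6 of the 12 fits without a library (adjusted p up to 0.0696 without miR-10a doxycycline replicate 2 and 0.0903 without miR-10b control replicate 2).

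The largest differences above 0 included genes at low levels that passed the per-vector test with miR-10b and not with miR-10a. SLFN13, a Schlafen family ribonuclease, lay between 2.30 and 3.94 CPM in the 9 other samples and at 10.4, 15.9 and 13.4 CPM with miR-10b and doxycycline. The miR-10b effect was 2.32 ± 0.16, the miR-10a effect -0.16 ± 0.21, and the difference 2.48 ± 0.27 (adjusted p = 1.68e-07). FCGBP, a mucin-like secreted protein, lay between 3.91 and 6.11 CPM in the 9 others and between 9.70 and 10.4 CPM in the miR-10b doxycycline samples, a difference of 1.34 ± 0.20. TRANK1 lay between 4.97 and 8.07 CPM in the 9 others and between 13.6 and 15.7 CPM in those, a difference of 1.10 ± 0.19. In each of these genes the miR-10b doxycycline samples did not overlap any other group. The same held at very low counts for LINC00029, a long noncoding RNA, and FAM71E2, both chosen after their values were seen. LINC00029 was at 0.075 to 0.424 CPM in the 9 others and at 4.38, 5.49 and 4.41 CPM in those, and FAM71E2 at 0.160 to 0.482 CPM and at 4.96, 6.35 and 3.49 CPM. Both entered the test through the miR-10b doxycycline samples, with as few as 1 and 2 counts in another sample, so no difference is given for them.

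Axonemal dynein heavy chains, the motor subunits of beating cilia, stood out among the higher genes once the values had been seen. Of 13 such genes in the files 11 were tested, 4 were called higher, beside 0.576% of all tested genes, and none lower. A difference above 0 was found for 8 of the 11, beside 51.8% of all tested genes, and the median was 0.27. DESeq2 over all tested genes did not call DNAH17, DNAH1 and DNAH7 (adjusted p = 0.0579, 0.0633 and 0.103). DNAL4, an axonemal dynein light chain named after its value was seen, was called lower in edgeR. How its call held in the other settings is not given. DNAH2 lay between 2.89 and 4.06 CPM in the 9 other samples and at 8.50, 8.75 and 7.82 CPM with miR-10b and doxycycline, a difference of 1.16 ± 0.23 (adjusted p = 0.00212). DNAH17 lay between 7.11 and 8.90 CPM in the 9 others and between 12.9 and 14.9 CPM in those, a difference of 0.72 ± 0.16. DNAH1 and DNAH7 differed by 0.40 ± 0.10 and 0.48 ± 0.13, and both calls were lost in 5 and 6 of the 12 fits without a library, with adjusted p up to 0.0898 and 0.191, both without miR-10a doxycycline replicate 2. The counted transcripts of the higher genes were longer, with a median of 4424 bases, than those of the lower genes (3420) and of all tested genes (2908), and 18.5% of them were noncoding, against 3.18% of the lower genes and 15.1% of all tested genes.

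In STK32A and FIRRE the miR-10b control samples lay below those of every other group. STK32A, a kinase gene with 3 transcripts among which reads may be split, was at 18.2, 25.1 and 19.6 CPM before and 19.3, 22.7 and 17.7 CPM after doxycycline with miR-10a, and at 11.2, 12.1 and 12.5 CPM before and 16.6, 20.8 and 18.6 CPM after with miR-10b. Only the miR-10b control samples stood apart, and the difference was 0.72 ± 0.15. FIRRE, a long noncoding RNA of the X chromosome, followed the same order, at 51.4, 47.5 and 51.8, then 45.5, 42.3 and 46.5 CPM with miR-10a and at 31.6, 33.4 and 34.0, then 39.2, 43.4 and 40.7 CPM with miR-10b. Its difference was 0.48 ± 0.09 (adjusted p = 0.000737). MCF2L2, a guanine nucleotide exchange factor, had an effect of -0.28 with miR-10a, not past the threshold, and of 0.54 with miR-10b, past it, with a difference of 0.82 ± 0.19, and lost its call without miR-10b control replicate 1 (adjusted p = 0.0505). SLC39A8, a zinc transporter with 4 transcripts, NEK8, a ciliary kinase, and USP32P1, a pseudogene that shares sequence with its parent gene, differed by 0.85 ± 0.21, 0.53 ± 0.13 and 0.50 ± 0.11, and their control samples did not differ between the vectors past the threshold. Their calls were lost in 3, 6 and 1 of the 12 fits without a library, with adjusted p up to 0.097 without miR-10a control replicate 3, 0.119 without miR-10a control replicate 2 and 0.0511 without miR-10a control replicate 3. GAS5-AS1, at 0.76 ± 0.21, lost its call in 11 of those fits (up to 0.12 without miR-10a doxycycline replicate 3), and its reads cannot be told apart from those of the opposite strand, since strand-specific counting is not stated.

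**Figure D3:**
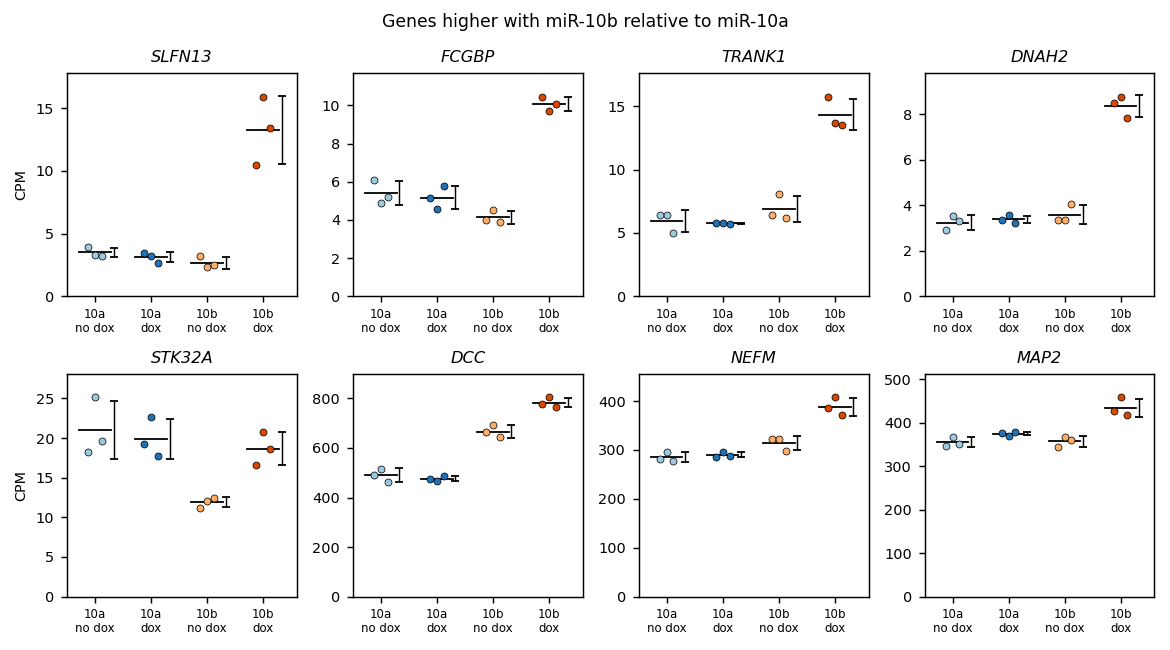
CPM per sample (y axis, starting at 0) for 8 genes with a higher response to miR-10b, in the 4 groups on the x axis, with points for samples, horizontal lines for means and bars for SD (n = 3). In all panels but that of STK32A the miR-10b doxycycline samples are the highest, and in STK32A the miR-10b control samples are the lowest.

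Neuronal genes were the marker list with the largest share of calls. Of 7 tested neuron markers 3 were higher and none lower, all 7 had a difference above 0, and the median was 0.205. Over all tested genes 0.576% were called higher and 51.8% had a difference above 0. NEFM, a neurofilament chain, was at 282, 296 and 277 CPM before and 285, 296 and 288 CPM after doxycycline with miR-10a, and at 322, 323 and 298 CPM before and 386, 407 and 371 CPM after with miR-10b. The miR-10b doxycycline samples were the highest without overlap, and the difference was 0.28 ± 0.05 (adjusted p = 0.00161). NEFL, the light chain, and MAP2, a dendritic microtubule protein with 4 transcripts, differed by 0.18 ± 0.04 and 0.21 ± 0.05. Of 26 tested axon guidance genes 2 were higher and none lower: DCC, the netrin receptor, was at 490.3 ± 26.9 and 475.5 ± 9.4 CPM with miR-10a and at 666.6 ± 24.4 and 783.6 ± 18.8 CPM with miR-10b (SD, n = 3, control first), a difference of 0.28 ± 0.05, and PLXNA2, a semaphorin receptor, differed by 0.27 ± 0.05. NEFL lost its call in 5 of the 12 fits without a library (adjusted p up to 0.0957, without miR-10b control replicate 3), and MAP2 in 4 (up to 0.0957, without miR-10a control replicate 2).

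Summed over all 12 listed neuron markers, levels were 1983 to 2024 CPM in miR-10a control samples, 1992 to 2057 with doxycycline, 2095 to 2218 in miR-10b control samples and 2418 to 2519 with doxycycline, with DCX, ELAVL3, ELAVL4, SYT1 and GAP43 at a mean of 10 counts or fewer. The mesenchyme and fibroblast markers ran the other way, with 6 of 6 tested members below 0 and COL1A1 and COL3A1 called lower. Of all tested genes, 1.38% were called lower and 51.8% had a difference above 0. The sums of this list are given with the collagens. The pluripotent cell list of 9 genes summed to 1644 to 1722, 1527 to 1573, 1231 to 1259 and 997 to 1010 CPM, most of it LIN28A, with NANOG at 0 in every sample and POU5F1 at a mean of 10 counts or fewer. The neural progenitor list of 8 genes summed to 6669 to 6712, 6368 to 6568, 7215 to 7307 and 6630 to 6986 CPM. SOX3, a SoxB1 factor, was its 1 call among 7 tested, lower by -0.28 ± 0.07, and nothing is read from that share. The SOX3 call was lost without miR-10a control replicate 3 or miR-10b control replicate 1 (adjusted p = 0.0915 for the latter). Markers of neural crest, endothelium and definitive endoderm each summed to under 9 CPM in every sample, and glial markers to between 63.0 and 71.8 CPM, with none called. Genes with several transcripts are measured poorly in these counts, so a low marker count is not read as absence. The sums are not read as cell content for the same reason. What part a shift in cell types had in the calls was not tested.

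**Figure D4:**
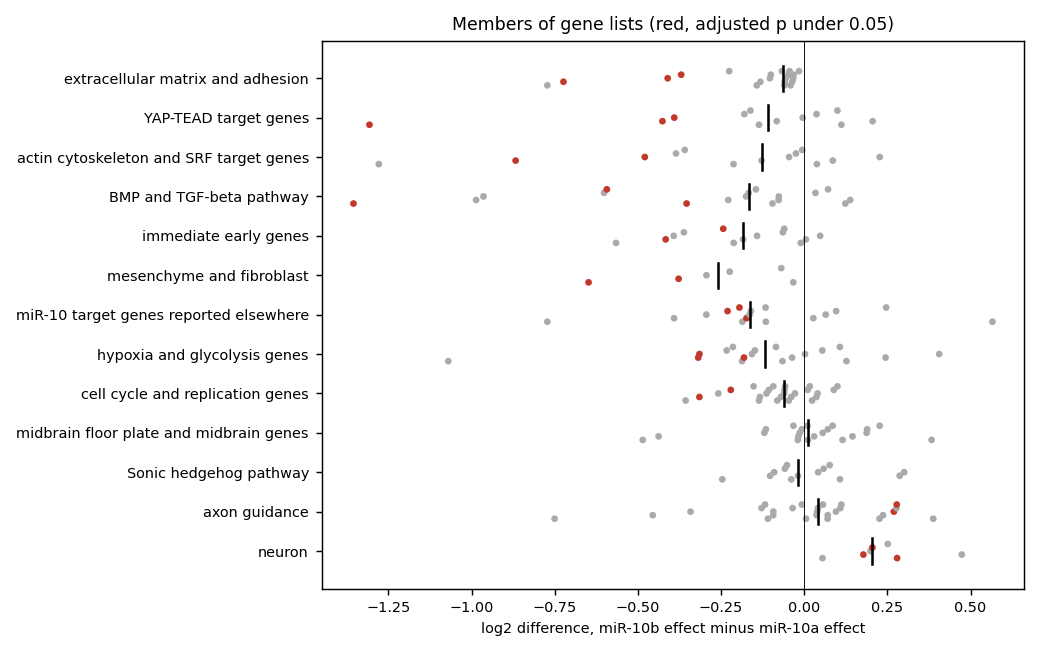
Log2 difference between the vectors (x axis) for each tested member of 13 gene lists (y axis), with 1 point per gene, red for an adjusted p under 0.05 and a black line for the list median. Matrix, mesenchyme and YAP-TEAD calls lie to the left of 0 and neuron and axon guidance calls to the right.

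Genes of regional identity and of the Sonic hedgehog pathway did not pass the test for a difference. None of 21 tested midbrain genes, 13 Sonic hedgehog genes, 11 forebrain genes or 7 hindbrain and HOX genes was called. With 1.96% of all tested genes called, nothing is read from the lack of calls in lists of this size. WNT1, the signal of the midbrain-hindbrain boundary, fell with both vectors, from 43.0 ± 2.6 to 31.5 ± 1.0 CPM with miR-10a and from 46.8 ± 1.4 to 29.8 ± 2.0 CPM with miR-10b (SD, n = 3), and the difference was -0.20 ± 0.09 (adjusted p = 0.317). CORIN, a floor plate protease, went from 7.10 ± 0.85 to 5.88 ± 0.58 and from 21.8 ± 1.2 to 12.8 ± 0.8 CPM, a difference of -0.49 ± 0.16 (adjusted p = 0.131). MSX1, LMX1A, FOXA2, GBX2 and NKX2-2 had differences of -0.02 ± 0.11, -0.12 ± 0.24, 0.19 ± 0.18, 0.00 ± 0.17 and 0.07 ± 0.08, so for LMX1A, with 2.49 to 8.08 CPM, only large differences were detectable. OTX2, with 7 transcripts and at most 10 counts in a sample, and HOXA4, with no count, were not tested.

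In further lists with 1 call each, the share called was 1.72% to 6.67%, beside 1.96% of all tested genes, so nothing is read from these shares. SFRP1, a secreted WNT inhibitor, was the 1 call of 30 tested WNT genes, at -0.18 ± 0.04, and DLL4, a Notch ligand, the 1 call of 15 Notch genes, at -0.34 ± 0.09. EPHA2 was the 1 call of 17 tested Eph receptors and ephrins, with values between 114 and 125 CPM in all 6 miR-10a samples, 111 to 118 CPM in miR-10b control samples and 87.5 to 92.4 CPM with doxycycline, and a difference of -0.30 ± 0.06 (adjusted p = 0.00296). COX6B2, a tissue-restricted subunit of cytochrome oxidase, was the 1 call of 58 respiratory chain genes, higher by 1.76 ± 0.44 at 0.580 to 4.20 CPM. It lies at chr19:55860674-55866087, close to FAM71E2 (chr19:55866276-55874628) and on the same strand. Whether their responses are separate was not tested. None of the 60 mitochondrial or 65 cytosolic ribosomal protein genes was called, nor of 16 clustered protocadherins, 13 FGF-ERK feedback genes, 12 unfolded protein response genes, 11 proneural factors, 9 interferon genes or 8 p53 target genes. From these lists without a call nothing is read either. The calls of SFRP1, DLL4 and COX6B2 were lost in 3, 8 and 6 of the 12 fits without a library, with adjusted p up to 0.0663 (without miR-10a control replicate 2), 0.105 (without miR-10b control replicate 1) and 0.123 (without miR-10a doxycycline replicate 2).

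Genes reported elsewhere as miR-10 targets gave 3 lower and 0 higher calls among 16 tested, with a median difference of -0.162. Over all tested genes 1.38% were called lower and the median was 0.007. The study names LIN28A as a miR-10 target from these same samples, so its call is not separate from that report. LIN28A, which blocks let-7 maturation, was at 1543, 1503 and 1572 CPM before and 1385, 1428 and 1371 CPM after doxycycline with miR-10a, and at 1149, 1132 and 1124 CPM before and 905, 907 and 884 CPM after with miR-10b. It fell with both vectors without overlap, and by -0.19 ± 0.04 more with miR-10b (adjusted p = 0.00413). E2F7, a repressor of the cell cycle, was lower after doxycycline with both vectors, at -0.18 ± 0.03 for miR-10a and -0.41 ± 0.04 for miR-10b (log2, both past the threshold), and differed by -0.23 ± 0.05. MAPRE1, the microtubule plus-end protein EB1, differed by -0.17 ± 0.05 and lost its call in 7 of the 12 fits without a library (adjusted p up to 0.168 without miR-10a control replicate 2).

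To relate the difference to sequence, the longest annotated 3′UTR of each gene (GENCODE 44 on GRCh37) was searched on its own strand for the 8mer ACAGGGTA that pairs with the shared 5p seed and for shorter matches. A 7mer-m8 is ACAGGGT, a 7mer-A1 is CAGGGTA and a 6mer is CAGGGT, and each gene counts under its best match. Of 251 tested genes with an 8mer, 12 (4.78%) were lower and 2 (0.797%) higher. Lower calls made up 3.36% of 1339 genes with a 7mer-m8, 2.71% of 479 with a 7mer-A1, 1.78% of 1913 with a 6mer and 0.824% of 5823 with no match, while higher calls stayed between 0.464% and 1.04% in all of these. Medians were near 0, at -0.029 for the 8mer and 0.008 for no match. Genes with matches have longer 3′UTRs, with a median of 3850 bases for the 8mer and 962 for no match, so shares were also taken within classes of length. With an 8mer or 7mer-m8, lower calls were 5.67% of genes with a 3′UTR of up to 1000 bases, 5.38% from 1001 to 2000 and 4.40% from 2001 to 4000, against 0.532%, 1.20% and 0.924% with no match. Above 4000 bases they were 1.71% and 1.56%.

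Sites are shown for the lower genes FCF1, EPHA2, RAB15, ANKRD1 and GALNT1, which kept their call in all settings tried, and for PLXNA2 as a gene with an 8mer that was higher. Each is the 23 bases of the messenger strand that end at the match, with the match in capitals (GRCh37).
FCF1, chr14:75202004-75202026, + strand: tgcacagctagagaaACAGGGTA
EPHA2, chr1:16451320-16451342, - strand: cccagcgccaagtaaACAGGGTA
RAB15, chr14:65413277-65413299, - strand: gctcaggacttagggACAGGGTA
ANKRD1, chr10:92672475-92672497, - strand: aagttttgagaaagcACAGGGTt
GALNT1, chr18:33290237-33290259, + strand: aaaaaactatattaaACAGGGTt
PLXNA2, chr1:208197021-208197043, - strand: tcctcccctagtggcACAGGGTA

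FCF1, a factor of small ribosomal subunit processing, was at 128 CPM in each miR-10a control sample and at 104, 107 and 102 CPM with doxycycline, and at 115, 120 and 117 CPM before and 67.2, 69.4 and 68.9 CPM after with miR-10b. It fell with both vectors without overlap, and the difference was -0.48 ± 0.06 (adjusted p = 1.64e-06). Its searched 3′UTR of 3690 bases is longer than its counted transcript of 2405, so the site may not lie in the counted form. RAB15, an endosomal GTPase, and TMEM19 were lower by -0.37 ± 0.07 and -0.36 ± 0.08, KCNA6, a potassium channel, by -0.43 ± 0.10 and ARSJ, a sulfatase, by -0.59 ± 0.16. KCNA6 lost its call in 3 of the 12 fits without a library (adjusted p up to 0.104) and ARSJ in 10 (up to 0.12), both highest without miR-10a doxycycline replicate 2. P4HB and SLC7A1 had a 7mer-A1 as their best match, whereas CTGF, CYR61, TNC, PTRF and ANXA1 had a 6mer or none.

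**Figure D5:**
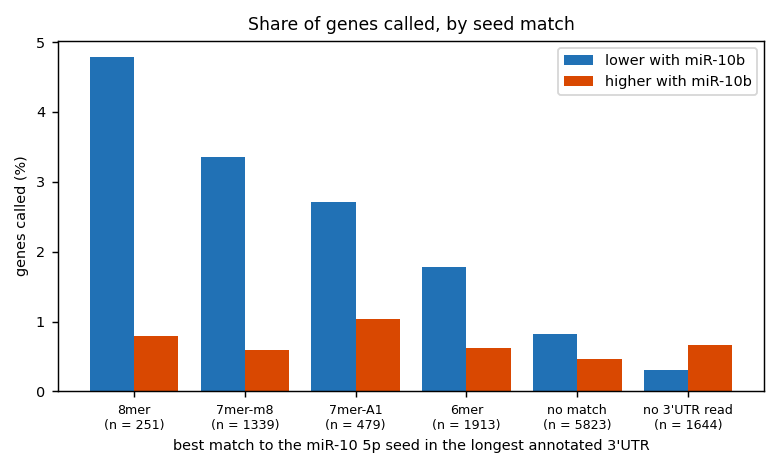
Percentage of tested genes called lower (blue) or higher (orange) with miR-10b (y axis, from 0), by the best match to the shared 5p seed in the longest annotated 3′UTR (x axis, n under each class). The lower share goes from 4.78% for the 8mer to 0.824% for no match, and the higher share shows no such order.

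For the seeds in which the vectors differ, the shares were closer to those of all genes. With an 8mer to the miR-10b-3p seed, GAATCTGA, 9 of 399 tested genes (2.26%) were lower and 4 (1.00%) higher, beside 1.37% and 0.529% with no match. SLFN13, which had the largest called difference above 0 among genes reaching a mean of 5 CPM in a group, holds such an 8mer and also a 7mer-m8 to the shared 5p seed, and HK2, which was lower, holds the former too. With an 8mer to the miR-10a-3p seed, CGAATTTA, 1 of 49 tested genes was higher and none lower. A match is a description of letters and not a measured site.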

How the data were processed

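RNA was sequenced from 12 samples of H9 cells as 50-base single-end reads. The study's text names the RNeasy kit and NuGEN libraries with poly-A enrichment, whereas the labels name the miRNeasy kit and Illumina kits. The authors mapped reads to hg19 and deposited raw counts per RefSeq transcript, 1 file per sample. The submitters' processing notes name STAR, featureCounts and Subread, with no version. Strand-specific counting is not given in the sources used here.

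Of 51799 rows, 3698 repeats of a transcript were dropped, which left 48101 transcripts of 25718 genes. Genes with 1 transcript held 92.84% of the counts, so reads shared between transcripts appear to be left out and genes with several transcripts are measured poorly. The transcript with the highest mean count stood for its gene. Genes with a mean above 10 counts were fitted with edgeR 4.0.16 (glmQLFit, glmQLFTest, R 4.3.3) on 4 group means with the total count as library size. The contrast was the doxycycline effect with miR-10b minus that with miR-10a, p-values were adjusted by Benjamini-Hochberg over all tested genes, the threshold was 0.05, and SE is the absolute log2 value over the square root of F. Counts were also simulated for 11451 genes, with differences placed only in genes expected above 50 counts and only in the miR-10b doxycycline group. Of these, 70 of 100 differences of 0.5 and 96 of 100 of 1 were recovered, with 8 false calls. Recovery at lower counts was not tested.

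Named genes were the precursors, the 12 largest called differences in each direction among genes with a mean of at least 5 CPM in a group, the 6 smallest p, genes the study names, up to 4 called members of each list, the 6 largest called differences with an 8mer, and genes stated as chosen after their values were seen. Members, lists and rules were chosen with earlier results of these data known. For 3′UTRs, 9805 of the 11451 tested genes (85.6%) had one in GENCODE 44 on GRCh37, the build of the files. Alternatives were TMM factors, DESeq2 1.42.0, no filter, a mean above 50 counts, replicate blocks, summed transcripts, counts thinned to the smallest total and leaving out each sample. Some results are not reported here.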

Additional observations from a re-analysis of the deposited data

Results flagged for a closer look

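The response to doxycycline differed between the vectors for 224 genes, by a direct test of the difference (edgeR, adjusted p under 0.05), and the values in parentheses are the log2 differences, miR-10b minus miR-10a, of those named. The lower responses fall into these groups. Enzyme, chaperone and transporter genes were P4HB (-0.52), GALNT1 (-0.49), MESDC2 (-0.48), SLC7A1 (-0.41), SLC38A2 (-0.32) and B4GALT2 (-1.08). YAP-TEAD, actin and membrane-coat genes were ANKRD1 (-1.31), CTGF (-0.43), CYR61 (-0.39), CNN1 (-0.87), TPM4 (-0.48), ANXA1 (-0.81) and PTRF (-0.66). Matrix and adhesion genes were TNC (-0.72), GPC4 (-0.37), SDC4 (-0.41), COL1A1 (-0.65), COL3A1 (-0.38) and COL5A2 (-0.36). Signalling, receptor and immediate early genes were BMP6 (-0.59), TGFB1 (-0.35), EGR1 (-0.42), JUN (-0.24), HBEGF (-0.63), EPHA2 (-0.30), SFRP1 (-0.18), DLL4 (-0.34), F2RL1 (-0.71), TNFRSF12A (-0.71) and TFPI (-0.69). Metabolic, cell cycle, histone and progenitor genes were HK2 (-0.32), PGK1 (-0.18), BNIP3 (-0.32), CDC6 (-0.32), RRM1 (-0.22), E2F7 (-0.23), HIST1H2BH (-0.72), LIN28A (-0.19), SOX3 (-0.28) and MAPRE1 (-0.17). Other genes with an 8mer and noncoding RNAs were FCF1 (-0.48), RAB15 (-0.37), TMEM19 (-0.36), KCNA6 (-0.43), ARSJ (-0.59), MIR663AHG (-0.89) and LOC100507351 (-0.69). 

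Higher with miR-10b than with miR-10a, besides the precursor MIR10B itself (10.14), were SLFN13 (2.48), FCGBP (1.34), TRANK1 (1.10), COX6B2 (1.76), SLC39A8 (0.85), MCF2L2 (0.82), GAS5-AS1 (0.76), STK32A (0.72), USP32P1 (0.50) and FIRRE (0.48). Ciliary genes among the higher were DNAH2 (1.16), DNAH17 (0.72), DNAH1 (0.40), DNAH7 (0.48) and NEK8 (0.53), while DNAL4 was called lower. Neuronal and axon guidance genes were NEFM (0.28), NEFL (0.18), MAP2 (0.21), DCC (0.28) and PLXNA2 (0.27). Of the 69 genes with a call whose difference is given, 40 kept it in every setting that gave an adjusted p and 29 lost it in at least 1, and none changed sign.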

How the results depend on the processing

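Of the 224 called genes, 99 (16 higher and 83 lower with miR-10b) were called in every setting that gave them an adjusted p, and none changed sign in any setting. TMM factors gave 229 calls, a mean above 50 counts 217, counts summed over transcripts 225 and thinning to the smallest total 188, all within 1.5 times the reported number. Without a filter on low counts 20966 genes were tested and 343 called, 135 of them higher. DESeq2 called 187, of which 22 were higher, and gave no adjusted p for 5994 genes, among them 42 of the called ones, while 27 others lost their call. With DESeq2 adjusted over all tested genes, a setting chosen after seeing the data, 152 were called and 25 were higher. The cause of the fewer higher calls in DESeq2 was not tested. Leaving out 1 library at a time gave 140 (without miR-10a control replicate 2) to 339 calls (without miR-10b doxycycline replicate 3), and 28 to 117 higher calls in the same fits. Lower calls stayed within 1.5 times in all settings.

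With the replicate number as a replicate block across the 4 groups, 274 genes were called, 89 higher and 185 lower, the 224 among them, and with a replicate block within vectors 218, where GAS5-AS1 and MAPRE1 were not called (adjusted p = 0.056 and 0.0702). Samples of the same vector with the same number did not deviate together (mean correlation of -0.0125, from -0.0317 to 0.0055), and those of different vectors had a mean of 0.0203, from -0.0468 to 0.1149, against -0.0102 for different numbers, so the numbers were not taken to pair samples. Genes with differences near 0 and no call changed sign when a library was left out, with ranges of -0.0709 to 0.0463 for MSX1, -0.2893 to 0.051 for LMX1A and -0.1087 to 0.0968 for GBX2. With 3 samples per group, differences of about 0.5 on the log2 scale were missed in part, and genes at low CPM or with several transcripts were measured least well.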
